A study of Saccharomyces cerevisiae with 30 samples.

Results

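The transcripts of 10 genes of mitochondrial iron-sulfur cluster assembly were followed through the metabolic cycle of budding yeast in a mutant and a wild-type strain. The genes ISU1, ISU2, NFS1, YFH1, JAC1, SSQ1, ISA1, ISA2, NFU1 and GRX5 were chosen by name, though with earlier results of these data known. All 10 were found among 7127 features of the count table, and all 10 were among the 6256 genes whose counts were high enough to be tested. Messenger RNA was sequenced from 30 libraries in 10 groups of 3. The W89A groups came from a strain with a tryptophan-to-alanine substitution in the YEATS-domain pocket of Yaf9, and the WT groups came from a strain with wild-type Yaf9. Yaf9 is a subunit shared by the SWR1 complex, which places the histone variant H2A.Z, and the NuA4 histone acetyltransferase, and its YEATS domain reads acylated histone tails. Both strains had the CEN.PK122-alpha background and grew in chemostats that were first starved and then fed low glucose, where the culture's oxygen use oscillates (the yeast metabolic cycle). Each strain was sampled at 5 time points in each of 3 consecutive cycles. The 3 libraries of a group were therefore successive cycles, and nothing says that they came from separate cultures, so p-values measure the spread between cycles, and strain and culture cannot be told apart. In a bulk culture, a lower level in each cell and a smaller share of cells in the phase of high expression cannot be told apart either.

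Iron-sulfur clusters are inorganic cofactors of respiratory complexes, aconitase, amino acid synthesis, DNA polymerases and the ribosome recycling factor Rli1. In mitochondria they are built on the scaffold proteins Isu1 and Isu2 from sulfur that the cysteine desulfurase Nfs1 takes from cysteine, with frataxin (Yfh1) assisting that step. The Hsp70 chaperone Ssq1 and its J-protein partner Jac1 release the finished cluster from the scaffold to the monothiol glutaredoxin Grx5, and Isa1, Isa2 and Nfu1 act later, in making the larger clusters of the aconitase type and handing them on. Yeast lives with either Isu1 or Isu2 but not without both.

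ISU1 (YPL135W) lies on chromosome XVI, 297553 to 298050, plus strand, and ISU2 (YOR226C) on chromosome XV, 761614 to 762084, minus strand (R64, RefSeq; the reference is the S288C strain, not the strain studied). Whether reads of these paralogs could be mistaken for each other bears on every comparison of them. Their coding sequences had 327 identical bases of 462 aligned (70.8%), and the longest identical run was 12 bases. No run of 25 bases or longer was shared. The stretch with that run, in capitals, is shown with 20 bases on each side, at chrXVI:297986-298037 on the plus strand for ISU1 and chrXV:761624-761675 on the minus strand for ISU2.
ISU1: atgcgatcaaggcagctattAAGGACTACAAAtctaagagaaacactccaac
ISU2: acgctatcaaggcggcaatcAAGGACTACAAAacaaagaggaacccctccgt

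ISU2 also overlaps YOR225W on the opposite strand by 108 bases. YOR225W had 66 counts in all over the 30 libraries, while ISU2 had 114 to 1082 counts in each library and ISU1 9869 to 30748.

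The 250 bases before the start codon are shown for the paralogs, whose levels ran apart, and for ISA2 and GRX5, whose levels ran most closely together among the members. They were searched on both strands for TGCACCC (the Aft1/Aft2 site of the iron regulators), its core CACCC, the letters CCAAT (the site of the Hap respiratory activators) and CCCCT (the Msn2/Msn4 stress element). GATGAG and AAAATTT, the cores of the PAC and RRPE elements of ribosome biogenesis genes, were added after the values were seen. Matches are in capitals. The windows are chrXVI:297303-297552 (plus strand) for ISU1, chrXV:762085-762334 (minus strand) for ISU2, chrXVI:681970-682219 (plus strand) for ISA2 and chrXVI:444329-444578 (plus strand) for GRX5.
ISU1: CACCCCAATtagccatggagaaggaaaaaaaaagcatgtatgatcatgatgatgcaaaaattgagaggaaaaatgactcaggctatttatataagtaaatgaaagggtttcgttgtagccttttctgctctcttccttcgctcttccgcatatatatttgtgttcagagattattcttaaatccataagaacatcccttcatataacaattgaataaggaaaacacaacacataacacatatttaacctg
ISU2: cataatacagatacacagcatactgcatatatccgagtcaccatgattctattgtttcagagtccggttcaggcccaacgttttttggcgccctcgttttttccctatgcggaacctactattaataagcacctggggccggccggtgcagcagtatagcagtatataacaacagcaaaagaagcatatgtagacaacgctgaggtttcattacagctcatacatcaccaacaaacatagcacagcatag
ISA2: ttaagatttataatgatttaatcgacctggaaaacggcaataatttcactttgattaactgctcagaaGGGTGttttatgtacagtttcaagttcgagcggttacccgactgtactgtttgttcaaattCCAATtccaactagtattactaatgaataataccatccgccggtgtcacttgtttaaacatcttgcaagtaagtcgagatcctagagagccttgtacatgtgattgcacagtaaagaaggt
GRX5: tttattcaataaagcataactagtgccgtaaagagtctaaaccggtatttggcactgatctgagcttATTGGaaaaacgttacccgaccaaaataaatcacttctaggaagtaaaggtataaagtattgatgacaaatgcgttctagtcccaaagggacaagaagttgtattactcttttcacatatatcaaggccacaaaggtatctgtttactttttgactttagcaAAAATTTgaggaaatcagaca

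ISU1 held CACCC and CCAAT, which share bases at the far end of the window. None of the letters searched was found before ISU2. ISA2 held CACCC on the minus strand and CCAAT on the plus strand. Both lie within the 143 bases of its window that belong to the neighbouring gene UBA3. GRX5 held CCAAT on the minus strand and AAAATTT. Of the other members, NFS1 held TGCACCC and CCAAT and YFH1 held GATGAG, while JAC1, SSQ1, ISA1 and NFU1 held none. TGCACCC was found in 1.15% of 6001 promoter windows of this length, CACCC in 16.3%, CCAAT in 35.4%, CCCCT in 18.8%, GATGAG in 17% and AAAATTT in 21.7%. A match is a description of letters, not a measured binding site.

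Library totals ranged from 16540627 to 20260295 counts, and no replicate pair held identical counts. Levels below are CPM, counts scaled to a common normalised library size. W89A of cycle 3 at time point 4 stood farthest from its group, and W89A of cycle 3 at time point 3 correlated better with the W89A libraries of time point 2 than with its own group (r of log2 CPM centred over libraries, 0.762 against 0.652). The W89A library of cycle 1 at time point 1 was closer to W89A of time point 2 (0.684 against 0.559), and that of cycle 3 at time point 5 was about as close to WT of time point 5 as to its own group (0.716 against 0.710). WT of cycle 1 at time point 1 was closer to WT of time point 2 (0.843 against 0.759), and WT of cycle 3 at time point 2 lay between WT of time points 1 and 2 (0.836 and 0.832). The calls of members at time points 3 and 4, and the counts over lists there, are also given without cycle 3 of W89A. Calls of single genes of the lists are given with the number of alternatives that kept them where any lost them. No such number is given for DRE2 and ACO1 at time point 3. The same holds for FET3 except at time point 2, and for AFT1 except at time points 4 and 5. Without W89A cycle 3 the ISU1 to ISU2 ratio differed within time points by 0.53 on the log2 scale (exact permutation p = 0.00657). Without W89A cycle 1 that difference was 0.45 (exact permutation p = 0.01413), and ISU2 at time point 1 was at -1.19 (edgeR adjusted p = 0.004753). YAF9 itself differed by a log2 fold change of -0.09 ± 0.06 (SE) on average over the cycle (edgeR adjusted p = 0.2746), a level that cannot check a substitution.

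The members did not move as a block. Genes were called at an adjusted p under 0.05 in the edgeR quasi-likelihood test, adjusted by Benjamini-Hochberg across the 6256 genes. At time point 1, 0 of 10 members were higher in W89A and 1 was lower, where 4.41% of all genes were higher and 3.6% lower (8.01% in all). At time point 2, 1 was higher and 1 lower, beside 8.44% and 4.64% of all genes (13.1% in all). At time point 3, 1 was higher and 4 were lower, beside 28.2% and 22.9% of all genes (51.1% in all). At time point 4, 0 were higher and 1 was lower, beside 10.9% and 10.5% of all genes (21.3% in all). At time point 5, 0 were higher and 3 were lower, beside 5.07% and 4.44% of all genes (9.51% in all). For the average over the cycle, 1 was higher and 4 were lower, beside 27.1% and 21.7% of all genes (48.8% in all). The shares called at time point 3 and for the average were thus close to the background. Of the 12 calls at single time points, ISU1 at time point 2 and ISA1 at time point 3 were higher in W89A, and the other 10 were lower. Those 10 repeat genes, with YFH1 at time points 2, 3 and 5, ISU2 at 1 and 5 and GRX5 at 3 and 4. They are thus not separate results, and several were lost in alternatives, as given below for each gene. The shares of all genes in each direction are those above. The median log2 fold change of the members was -0.09 at time point 3, beside 0.08 for all genes, and -0.08 for the average, beside 0.02. Normalisation matters to this at time point 3, where scaling on counts without mitochondrially encoded genes and the 10 genes of highest count moved the median of all genes to -0.05 and the calls over all genes to 1398 higher and 1837 lower, beside 1767 and 1430 by TMM. The 5 member calls of that time point kept their direction.

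**Figure D1:**
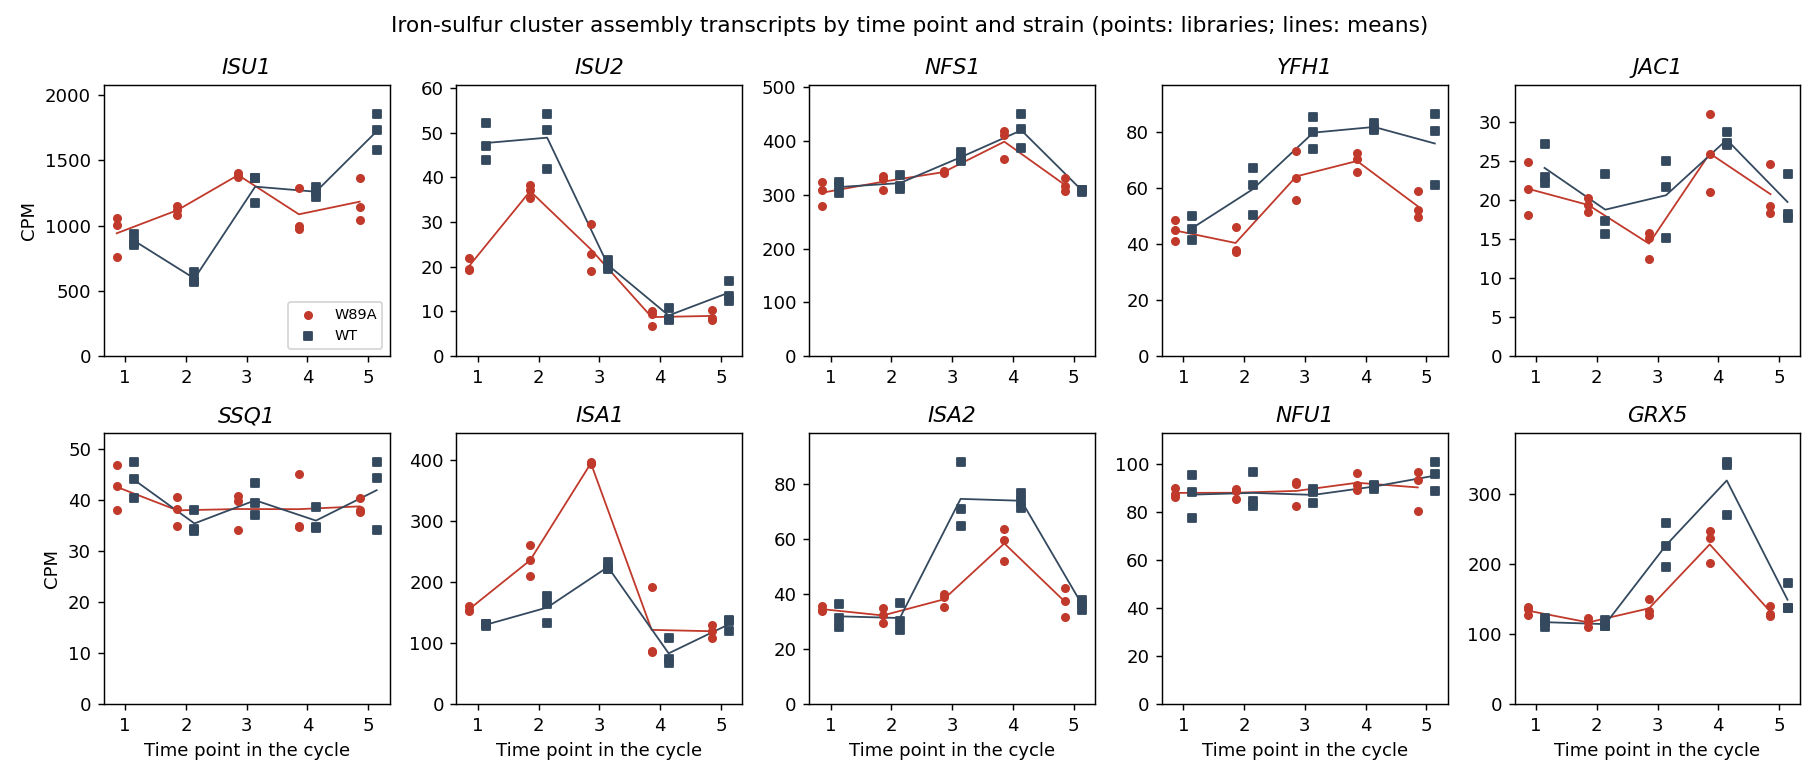
CPM of the 10 members (panels) in each library against the time point in the cycle, W89A (red circles) left of WT (dark squares), with lines through the means of 3 libraries. ISU1 peaks at time point 3 in W89A, and in WT it is lowest at time point 2 and highest at time point 5. ISA2 and GRX5 are lower in W89A than in WT at time point 3.

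**Figure D2:**
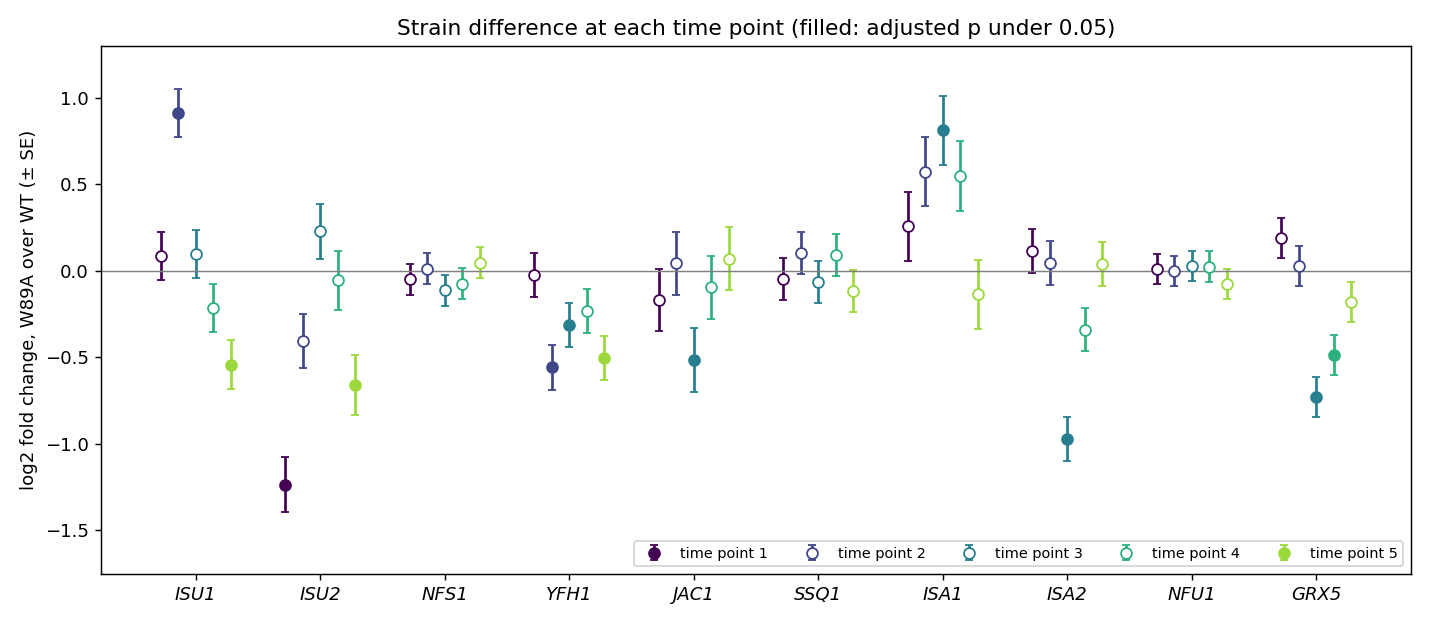
Log2 fold change of W89A over WT with its SE for each member and time point, from time point 1 (left, dark) to time point 5 (right, light). Filled points have an edgeR adjusted p under 0.05; ISU2 at time point 1 lies lowest (-1.24) and ISU1 at time point 2 highest (0.91).

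ISU1, the main scaffold gene by level, was higher in W89A at time point 2 and lower at time point 5. At time point 2 it had 1119.9, 1080.5 and 1152 CPM in W89A, against 567, 574 and 642 CPM in WT. All 3 W89A libraries exceeded all WT libraries, as was so in either direction for 32.9% of all genes at this time point. The log2 fold change was 0.91 ± 0.14 (SE; edgeR adjusted p = 0.0001396), and it stayed past the threshold under all 14 alternatives tried. At time point 5, ISU1 had 1141, 1039 and 1367 CPM in W89A, against 1578, 1732 and 1853 CPM in WT, again without overlap (35.9% of all genes). The log2 fold change of -0.54 ± 0.14 (adjusted p = 0.01685) missed the threshold in 5 of the 6 fits without a single replicate (adjusted p up to 0.113), and when 2 W89A libraries of cycle 1, whose time points differ between sources, were left out (0.07915). ISU1 averaged 940.4 CPM in W89A and 885 CPM in WT at time point 1. At time point 3 it averaged 1386 CPM in W89A and 1297 CPM in WT, and at time point 4 it averaged 1086 CPM in W89A and 1258 CPM in WT. None of these 3 differences passed.

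The course of ISU1 through the cycle thus differed between strains. In W89A its group means spanned 1.47-fold, with the peak at time point 3 and the lowest level at time point 1. In WT they spanned 2.90-fold, with the lowest level at time point 2 and the peak at time point 5. The strain difference changed over the cycle (interaction F test of edgeR, adjusted p = 5.866e-05), a call shared by 4 of the 10 members and by 41.9% of all genes. The change over the cycle itself passed in both strains, with an adjusted p of 0.01239 in W89A and 2.711e-09 in WT. The W89A call was lost without W89A cycle 2 (adjusted p = 0.1973), without W89A cycle 1 (0.05076) or without WT cycle 3 (0.05827).

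ISU2, the paralogous scaffold gene, was far less abundant and ran almost opposite to ISU1 in WT. It peaked at time point 2 and was lowest at time point 4 in both strains, over a 4.22-fold range in W89A and 5.37-fold in WT. At time point 1, ISU2 had 19.2, 19.5 and 22 CPM in W89A, against 52.2, 43.9 and 47.0 CPM in WT, with no overlap (35.2% of all genes). Its log2 fold change there, -1.24 ± 0.16, had an adjusted p of 0.0001104 in edgeR and passed under all 14 alternatives. At time point 2 the libraries still did not overlap (32.9% of all genes), with 37.1, 35.3 and 38.3 CPM in W89A and 50.7, 41.8 and 54.2 CPM in WT. The log2 fold change of -0.40 ± 0.16 did not pass (edgeR adjusted p = 0.09121). The authors' deposited table gives an adjusted p of 0.04695 for ISU2 there.

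Levels of ISU2 came together in the middle of the cycle. At time point 3 ISU2 had 19.1, 22.9 and 29.7 CPM in W89A and 19.5, 21.6 and 20.1 CPM in WT, and at time point 4 it had 9.4, 6.8 and 10.1 CPM in W89A and 8.1, 8.4 and 10.8 CPM in WT. At time point 5 it had 8.2, 8.4 and 10.4 CPM in W89A, against 16.9, 13.5 and 12.4 CPM in WT, a log2 fold change of -0.66 ± 0.17 (adjusted p = 0.01796) that was lost in 3 of the 6 fits without a single replicate (up to 0.1347) and without the same 2 libraries of cycle 1 (0.1017). Averaged over the cycle, ISU2 was lower in W89A by a log2 fold change of -0.43 ± 0.07 (adjusted p = 3.712e-05, past the threshold in all 13 alternatives), whereas ISU1 was at 0.07 ± 0.06 (adjusted p = 0.3868). The ISU2 interaction passed as well (adjusted p = 0.000169).

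The ratio of the paralogs within a library does not depend on how libraries are scaled. Per kilobase of coding sequence, ISU1 exceeded ISU2 in every library, by 10.6-fold to 148-fold. At time point 1 the ratio was 44.0 ± 7.44 in W89A and 17.6 ± 0.708 in WT (SD, n = 3 each). At time point 2 it was 28.6 ± 0.251 in W89A and 11.6 ± 1.24 in WT. Both differences are 2.48-fold on the scale of the log2 ratio, and both have an exact permutation p of 0.1, the smallest that 3 against 3 libraries allow. At time points 3, 4 and 5 the ratios were 56.8, 119 and 124 in W89A and 60.4, 133 and 117 in WT, with overlapping libraries and exact permutation p of 0.7, 0.5 and 0.8. Over the cycle, the log2 ratio was higher in W89A by 0.49 (1.41-fold; 2-sided exact permutation test within time points, p = 0.00542, 3200000 arrangements). It was higher at 3 of 5 time points, and this difference was carried by time points 1 and 2.

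**Figure D3:**
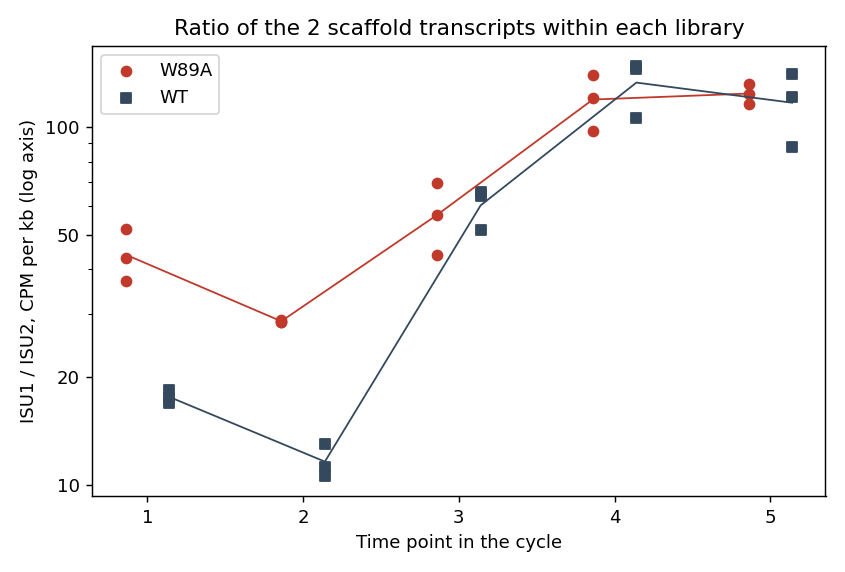
Ratio of ISU1 to ISU2, both in CPM per kilobase of coding sequence, in each library (log axis), against the time point, W89A (red circles) left of WT (dark squares), with lines through the means of 3 libraries. W89A lies above WT without overlap at time points 1 and 2, and the strains overlap from time point 3 to time point 5.

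The genes closest to ISU1 in course, by Pearson's r of log2 CPM over all 30 libraries among genes with a mean of at least 10 CPM, were RTS3 (r = 0.852), SKA1 (0.836), COQ11 (0.825), ACS2 (0.815), which makes cytosolic acetyl-CoA, and SPO24 (0.812). Within the 15 W89A libraries the r of RTS3 was 0.154, and within the 15 WT libraries 0.978. For ISU2 the closest were FCY21 (0.953), YIL067C (0.941), FSF1 (0.940), BET5 (0.940) and DRE2 (0.939), which acts in cytosolic iron-sulfur assembly; the r of DRE2 was 0.953 in W89A and 0.970 in WT. ISU1 and ISU2 had an r of -0.52 over all libraries, 0.12 in W89A and -0.80 in WT. Libraries of a time point share the cycle phase, so these r describe likeness of course only.

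NFS1, which encodes the desulfurase, was not called between strains at any time point. It ranged from 279.7 to 419.7 CPM over the 15 W89A libraries (median 332) and from 304 to 450.4 CPM over the 15 WT libraries (median 323). Its log2 fold changes lay between -0.11 and 0.05 at the 5 time points, with SE of 0.09, and NFS1 peaked at time point 4 in both strains, with means 1.31-fold above the lowest in W89A and 1.36-fold in WT. The change over the cycle passed in both strains, although in W89A it was lost without cycle 2 (adjusted p = 0.1423) and by the order of the library titles (0.1819).

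YFH1, the yeast frataxin gene, was lower in W89A at time points 2, 3 and 5. At time point 2 it had 37.8, 37.3 and 46.0 CPM in W89A, against 67.3, 61.0 and 50.2 CPM in WT. The groups did not overlap (32.9% of all genes), and the log2 fold change was -0.56 ± 0.13 (edgeR adjusted p = 0.006177). It missed the threshold without WT cycle 1 (-0.46, adjusted p = 0.05667), without W89A cycle 1 (0.05274) or without W89A cycle 2 (0.05532). At time point 3 YFH1 had 73.2, 63.6 and 55.5 CPM in W89A, against 73.8, 85.4 and 79.9 CPM in WT, groups that did not overlap, like those of 59.8% of all genes there. That log2 fold change of -0.31 ± 0.13 (adjusted p = 0.04155) lay near the threshold and was at -0.22 (0.1875) without cycle 3 of W89A. YFH1 kept this call in 9 of 14 alternatives. By the order of the library titles and without W89A cycle 2, WT cycle 2 or WT cycle 3, YFH1 lost it too. At time point 5 it had 49.7, 58.8 and 52.0 CPM in W89A, against 86.4, 60.9 and 80.3 CPM in WT, a log2 fold change of -0.50 ± 0.13 (adjusted p = 0.01657), which was -0.31 (0.2201) by the order of the library titles and -0.45 (0.09942) with the same 2 libraries of cycle 1 left out. It was also lost without W89A cycle 1, W89A cycle 2, WT cycle 1 or WT cycle 3 (adjusted p up to 0.1174).

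The average of YFH1 over the cycle was more stable than its single time points: a log2 fold change of -0.33 ± 0.06 (edgeR adjusted p = 4.684e-05), with adjusted p no higher than 0.0009583 in 13 alternatives. At time point 1 the strains overlapped, with 44.9, 41.1 and 48.6 CPM in W89A and 49.9, 41.5 and 45.4 CPM in WT. YFH1 peaked at time point 4 in both strains, and its interaction did not pass (adjusted p = 0.09395).

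Of the chaperone pair, SSQ1 had a narrow range. It ran from 34.2 to 47.0 CPM in W89A (median 38.4) and from 33.9 to 47.5 CPM in WT (median 38.7), and neither a strain difference nor a change over the cycle passed (adjusted p = 0.6458 in W89A and 0.07436 in WT for the cycle). JAC1, its J-protein partner, had the lowest W89A level at time point 3, with 12.4, 15.7 and 15.1 CPM in W89A, against 21.6, 15.1 and 25 CPM in WT. The libraries overlapped, and the log2 fold change of -0.52 ± 0.18 (edgeR adjusted p = 0.02121) was lost in 3 of the 6 fits without a single replicate (up to 0.1233) and when the 6 libraries were fitted alone. Without cycle 3 of W89A it was -0.55 (0.02953). JAC1 peaked at time point 4 in both strains, and its average over the cycle did not differ past the threshold (log2 fold change -0.13 ± 0.08, adjusted p = 0.1836).

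GRX5, the glutaredoxin that takes the cluster from the scaffold, was lower in W89A at time points 3 and 4, on its way to the peak and at it. At time point 3 it had 150.1, 134 and 127 CPM in W89A, against 226, 196 and 259 CPM in WT. No library overlapped (59.8% of all genes). The log2 fold change of -0.73 ± 0.12 (edgeR adjusted p = 1.142e-05) passed under all 14 alternatives, with -0.68 (9.665e-05) without cycle 3 of W89A. At time point 4 GRX5 had 246, 237 and 201 CPM in W89A, against 342, 271 and 346 CPM in WT, again without overlap (35% of all genes). There the log2 fold change was -0.49 ± 0.12 (adjusted p = 0.004651), and it missed the threshold only when the 6 libraries were fitted alone (0.08739). Without cycle 3 of W89A it was -0.40 (0.01843). At time points 1, 2 and 5 the differences did not pass. GRX5 spanned 1.95-fold over the W89A cycle and 2.79-fold over the WT cycle, and its interaction passed (adjusted p = 0.0003772).

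ISA1 and ISA2, whose products act together in late cluster assembly, went opposite ways at time point 3. ISA1 had 394, 393 and 396 CPM in W89A, against 221, 232 and 221 CPM in WT. The log2 fold change was 0.81 ± 0.20 (edgeR adjusted p = 0.001447). ISA2 had 40.0, 39.0 and 35.4 CPM in W89A, against 88.1, 64.8 and 71.2 CPM in WT, and its log2 fold change was -0.97 ± 0.13 (adjusted p = 8.443e-07). Both genes were free of overlap between strains, like 59.8% of all genes there. Both calls held under all 14 alternatives. Without cycle 3 of W89A the log2 fold changes were 0.81 for ISA1 and -0.92 for ISA2.

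ISA1 was not called at any other time point, though the authors' deposited table gives it an adjusted p of 0.04775 at time point 1. It had 236, 260 and 211 CPM in W89A at time point 2, against 165, 177 and 133 CPM in WT, a log2 fold change of 0.57 ± 0.20 (edgeR adjusted p = 0.05902). Over 14 alternatives that adjusted p ranged from 0.001994 to 0.2265, and the authors' deposited table gives 0.002748. At time point 4 it had 87.0, 86.2 and 192 CPM in W89A, against 74.0, 108 and 68.2 CPM in WT, so that 1 library, that of cycle 3, lay far above the rest. The log2 fold change there was 0.55 ± 0.20 (adjusted p = 0.05236) with that library and 0.06 (0.795) without cycle 3 of W89A. Averaged over the cycle ISA1 was higher in W89A (0.41 ± 0.09, adjusted p = 0.0005163), and without cycle 3 the value was 0.32 (0.0001629).

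ISA2 had 59.7, 52.0 and 63.8 CPM in W89A at time point 4, against 77.0, 73.8 and 71.3 CPM in WT. The groups did not overlap (35% of all genes). The log2 fold change of -0.34 ± 0.12 missed the threshold (edgeR adjusted p = 0.05258, against 0.04753 in the authors' deposited table). Without cycle 3 of W89A it was -0.41 and passed (0.02863). By the order of the library titles ISA1 and ISA2 were both called at time point 4, with log2 fold changes of 0.67 and -0.53. The highest mean of ISA2 was at time point 4 in W89A (58.5 CPM) and at time point 3 in WT (74.7 CPM), where the next time point was almost as high (74.0 CPM). The interaction passed for ISA2 (adjusted p = 0.0001246) and not for ISA1 (0.06142).

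NFU1, which hands clusters on to their clients, had the narrowest course. It ranged from 80.7 to 97.0 CPM in W89A (median 89.7) and from 77.8 to 101 CPM in WT (median 89.7). Its log2 fold changes at the 5 time points lay between -0.08 and 0.03, and the change over the cycle did not pass in W89A (adjusted p = 0.9332) or WT (0.5781). In each strain 8 of the 10 members passed that test, all but NFU1 and SSQ1, beside 75.5% of all genes in W89A and 81.5% in WT. The JAC1 call was the least firm in WT (edgeR adjusted p = 0.03185), kept in 9 of 13 alternatives (up to 0.2581). In W89A it was kept in 12 of 13, and lost without W89A cycle 1 (0.08943).

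For ISA2 and GRX5 the W89A levels of time point 3 lay nearer to WT of time point 2 than to WT of time point 3. The mean of ISA2 at time point 3 was 38.1 CPM in W89A, and the WT means were 31.4 CPM at time point 2 and 74.7 CPM at time point 3. GRX5 averaged 137 CPM in W89A at time point 3, with WT means of 114 CPM at time point 2 and 227 CPM at time point 3. YFH1 and NFS1 also lay nearer to WT of time point 2. YFH1 averaged 64.1 CPM in W89A, with WT means of 59.5 CPM at time point 2 and 79.7 CPM at time point 3, and NFS1 averaged 342 CPM in W89A, with 322 and 369.9 CPM in WT. JAC1, at 14.4 CPM in W89A, lay below both WT means, and ISA1, at 395 CPM in W89A, above both. ISU2 and ISU1 lay nearer to WT of time point 3: at time point 3 ISU2 averaged 23.9 CPM in W89A, with 48.9 CPM at time point 2 and 20.4 CPM at time point 3 in WT, and ISU1 averaged 1386 CPM in W89A, with 594 and 1297 CPM in WT. These are levels side by side, and a shift in sampling phase between the cultures was not tested. Over all 30 libraries ISA2 and GRX5 were the most alike pair of members (r = 0.908), followed by NFS1 and GRX5 (0.864), while JAC1 and ISA1 ran most oppositely (-0.76).

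Levels between genes are comparable per kilobase of coding sequence. In W89A the median over 15 libraries was 2249 CPM per kilobase for ISU1, 295 for GRX5, 222 for NFS1, 214 for ISA1, 116 for NFU1, 99.0 for YFH1, 63.9 for ISA2, 40.8 for ISU2, 35.0 for JAC1 and 19.4 for SSQ1. In WT it was 2449 for ISU1, 303 for GRX5, 216 for NFS1, 177 for ISA1, 141 for YFH1, 116 for NFU1, 65.7 for ISA2, 42.6 for ISU2, 41.4 for JAC1 and 19.6 for SSQ1. The order was the same in both strains but for YFH1 and NFU1, which changed places. ISU1 lies above every other member in every library. Below it the ranges over libraries of most neighbours overlap, so the order of those medians is not firm.

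The rest of the pathway was described from further lists. Of 9 other mitochondrial assembly genes, 1 was higher and 6 were lower in W89A at time point 3, with a median log2 fold change of -0.62 beside 0.08 for all genes. Of all genes 28.2% were higher and 22.9% lower there, and without W89A cycle 3 the counts were 1 and 6. SSC1, the main mitochondrial Hsp70, had a mean of 732 CPM in W89A there, against 1609 CPM in WT (log2 fold change -1.14 ± 0.15, edgeR adjusted p = 6.82e-07). ARH1, the reductase that supplies electrons to the ferredoxin, was at -0.68 ± 0.13 (6.942e-05), while YAH1, that ferredoxin, was at 0.55 ± 0.19 (0.01709), a call kept in 9 of 14 alternatives. AIM1, also named BOL3, which acts late with NFU1, was lower in W89A at all 5 time points, though its call was kept in 10 of 14 alternatives at time point 1 and in 9 at time point 5, with an average of -0.72 ± 0.08 (9.228e-08; means of 23.3 CPM in W89A and 38.4 CPM in WT). IBA57, a partner of ISA1 and ISA2, was higher in W89A at time point 1 (0.51 ± 0.14, adjusted p = 0.03122) and time point 2 (0.58 ± 0.14, 0.0105), calls kept in 9 and 10 of 14 alternatives. For the average, 0 were higher and 5 lower, beside 27.1% and 21.7% of all genes, and over 13 alternatives 2 to 5 were lower. At time point 4, 0 were higher and 2 lower (0 and 2 without W89A cycle 3, and 1 to 2 lower over 14 alternatives), beside 10.9% and 10.5% of all genes. At time point 5 AIM1 was the only call, beside 5.07% of all genes higher and 4.44% lower.

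Of 16 genes of cluster export and cytosolic assembly, 8 were higher and 1 was lower at time point 3, with a median of 0.29, and over 14 alternatives 7 to 8 were higher. Without W89A cycle 3 it was 8 and 2. Of all genes 28.2% were higher and 22.9% lower there. The 9 called in all are close to the 51.1% called in either direction, but the split by direction is not. CFD1, part of the cytosolic scaffold, had means of 52.1 CPM in W89A and 23.4 CPM in WT (log2 fold change 1.16 ± 0.14, edgeR adjusted p = 4.41e-07), and NAR1, the next carrier, had 173 CPM in W89A and 92.1 CPM in WT (0.91 ± 0.12, 7.487e-07). GRX3, a cytosolic glutaredoxin, was lower (-0.33 ± 0.12, 0.01853), a call that missed the threshold without WT cycle 3 (adjusted p = 0.0503). At time point 4 it was 1 higher and 5 lower, among them GRX4 (-0.64 ± 0.15, 0.004125) and CIA1 (-0.48 ± 0.10, 0.001828), beside 10.9% and 10.5% of all genes. By the order of the library titles that count was 1 and 1, and without W89A cycle 3 it was 1 and 9. The calls of GRX4 and CIA1 were kept in 12 and 13 of 14 alternatives. At time point 1 DRE2 (-0.61 ± 0.13, 0.007686) and GRX3 were lower and none was higher, beside 3.6% and 4.41% of all genes. These calls were kept in 12 and 10 of 14 alternatives, over which 0 to 4 were lower. DRE2 was higher at time point 3 (0.45 ± 0.13, 0.004429). At time point 2, 0 were called by edgeR, beside 13.1% of all genes, with 5 at an unadjusted p under 0.05. In DESeq2 1 was higher and 1 lower. At time point 5, 1 was higher, MET18 (0.48 ± 0.12, 0.01758), and 2 were lower, beside 5.07% and 4.44% of all genes. Over 14 alternatives these counts were 0 to 1 and 0 to 3, and the call of MET18 was kept in 8. For the average, 3 were higher and 6 lower, again 9 in all, beside 27.1% and 21.7% of all genes (48.8% in all). Over 13 alternatives 2 to 4 were higher and 4 to 7 lower.

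Of 22 genes for proteins that carry the clusters, 10 were higher and 4 lower at time point 3, with a median of 0.21, beside 28.2% and 22.9% of all genes. Without W89A cycle 3 the counts were the same. RLI1, the ribosome recycling factor, had means of 585 CPM in W89A and 191 CPM in WT (log2 fold change 1.61 ± 0.19, edgeR adjusted p = 1.965e-07), and LYS4, homoaconitase of lysine synthesis, had 1170.4 CPM in W89A and 360.3 CPM in WT (1.70 ± 0.20, 2.678e-07). SDH2, the iron-sulfur subunit of succinate dehydrogenase, was lower there (-0.53 ± 0.16, 0.005855). It was higher at time point 1 (0.64 ± 0.16, 0.01542) and time point 4 (0.77 ± 0.16, 0.001687), calls kept in 10 and 12 of 14 alternatives. RIP1, the Rieske protein of the cytochrome bc1 complex, was higher at time point 1 (0.61 ± 0.15, 0.01532), where the call was kept in 8 of 14 alternatives, and at time point 4 (0.80 ± 0.15, 0.0007953), where it was kept in all 14. ACO1, aconitase, was the single client called at time point 2, beside 8.44% of all genes higher and 4.64% lower. Its means were 2656 CPM in W89A and 1282 CPM in WT (1.05 ± 0.16, 0.0001462). At time point 3 ACO1 was lower, with 5951 CPM in W89A and 8533 CPM in WT (-0.52 ± 0.16, 0.008511). There were 2 higher and 2 lower at time point 1, beside 4.41% and 3.6% of all genes. At time point 4 it was 2 and 1, beside 10.9% and 10.5%, and at time point 5 2 and 0, beside 5.07% and 4.44%. Over 14 alternatives these were 0 to 3 and 0 to 3 at time point 1, 1 to 3 and 0 to 2 at time point 4, and 0 to 6 and 0 at time point 5, and without W89A cycle 3 they were 3 and 2 at time point 4. For the average, 10 were higher and 2 lower, beside 27.1% and 21.7% of all genes, and the number higher was 10 under all 13 alternatives.

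The iron regulon comprises the genes for iron uptake and distribution. Of 25 genes tested, 7 were higher and 7 lower at time point 3, and 7 were higher and 8 lower for the average, shares close to those of all genes (28.2% and 22.9%, and 27.1% and 21.7%). ENB1, a siderophore transporter, was higher on average (log2 fold change 0.44 ± 0.05, edgeR adjusted p = 3.162e-07), as was the transporter gene SMF3 (0.36 ± 0.05, 2.256e-06). FIT2, a cell wall mannoprotein that retains siderophores, was lower (-0.74 ± 0.08, 1.444e-07), as was the vacuolar oxidase gene FET5 (-0.23 ± 0.04, 2.348e-05). FET3 had the largest average change of the list (1.02 ± 0.14, 2.423e-06), with means of 200 CPM in W89A and 93.7 CPM in WT. It was called higher at time points 1, 2 and 3, although the call at time point 1 was lost without W89A cycle 1. At time point 2 (1.24 ± 0.31, 0.01092) the call was kept in 10 of 14 alternatives. AFT1, which encodes an activator of this regulon, was higher on average (0.50 ± 0.07, 3.332e-06) and at time point 2 (0.48 ± 0.16, 0.04543). The time point 2 call lay near the threshold and was not kept in all 14 alternatives. AFT1 was also higher at time point 4 (0.68 ± 0.16, 0.004492) and time point 5 (0.63 ± 0.16, 0.01657), calls kept in 12 and 9 of 14 alternatives. For time point 1, 5 were higher and 2 lower, beside 4.41% and 3.6% of all genes. At time point 2 it was 4 and 1, beside 8.44% and 4.64%. At time point 4 it was 5 and 5, beside 10.9% and 10.5%, and at time point 5 1 and 2, beside 5.07% and 4.44%. These counts depended on the libraries used: at time point 1 they were 0 and 0 without W89A cycle 1, and over 14 alternatives they were 1 to 5 and 0 to 3 at time point 2, 0 to 7 and 0 to 7 at time point 4, and 0 to 2 and 0 to 2 at time point 5. Without W89A cycle 3 they were 8 and 6 at time point 3, and 6 and 7 at time point 4.

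**Figure D4:**
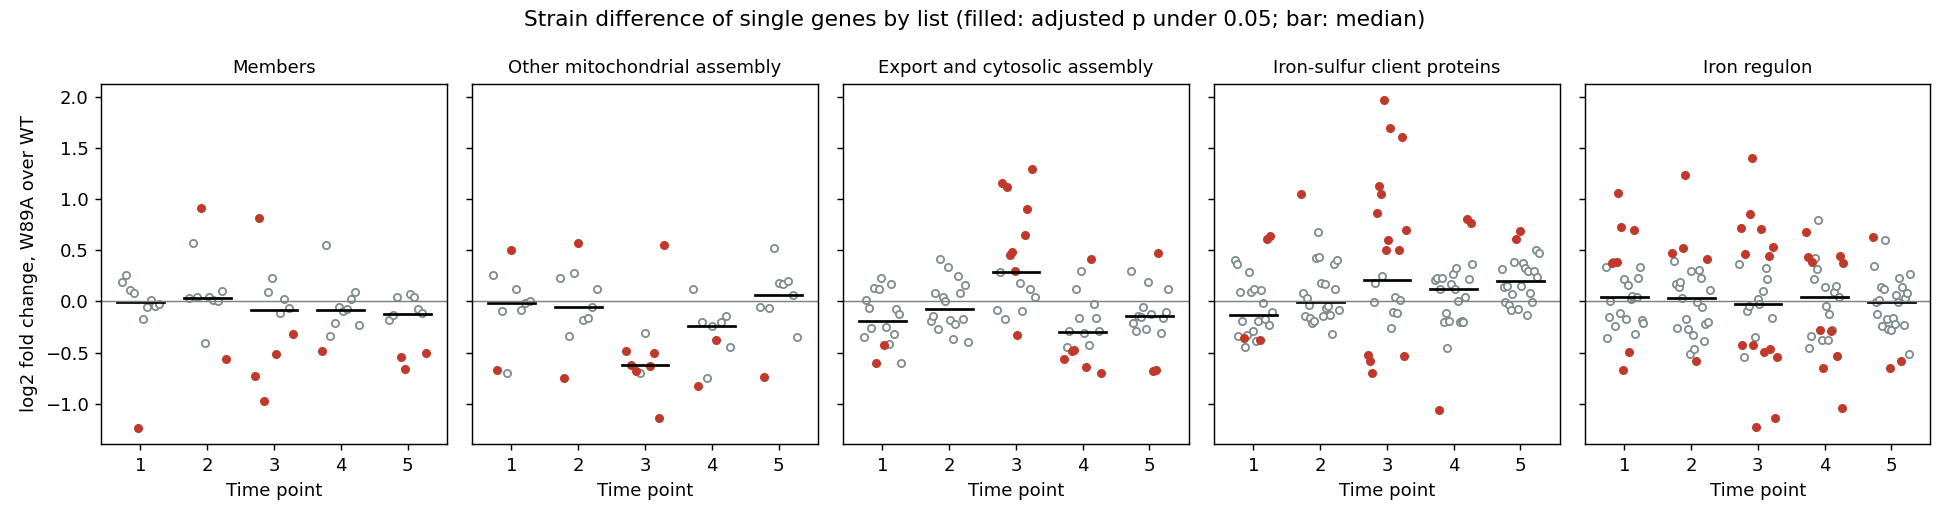
Log2 fold change of W89A over WT for each gene of the 10 members, 9 other mitochondrial assembly genes, 16 export and cytosolic assembly genes, 22 client genes and 25 iron regulon genes (panels), by time point. Filled points have an edgeR adjusted p under 0.05 and bars are medians; at time point 3 the median is -0.62 for other mitochondrial assembly and 0.29 for export and cytosolic assembly.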

How the data were processed

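RNA-seq counts of 30 libraries were analysed. The deposited table holds whole-number counts per gene made by the authors; aligner, counter, annotation and strand setting are not given in the sources used here. Per the submitters' processing notes the build is mm9, a mouse assembly, but start and end equalled R64 for 5881 of 5890 genes in both sources, all members included. The authors' deposited tables give log2 fold changes and p-values for each time point; they supplied symbols and the values credited to them. In these tables, the cycle 1 W89A libraries of time points 4 and 5 are placed in the reverse of the title order. That placing was followed.

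The main model was edgeR 4.0.16 in R 4.3.3, fitted to all 30 libraries with TMM factors, filterByExpr (6256 kept, 871 removed), robust quasi-likelihood dispersions and 10 group means; common BCV was 0.1639. P-values (2-sided) were adjusted by Benjamini-Hochberg across the genes kept, with a threshold of 0.05. F tests asked about the interaction and about change over each cycle. Log2 CPM used a prior count of 2 and the log2 count ratio of ISU1 to ISU2 a pseudocount of 0.5, with an exact permutation test of strain within time points. The fit and the permutation test were tested on simulated data. Sequences and coordinates are RefSeq R64; all 10 members matched. Alternatives were DESeq2 1.42.0, RLE factors, scaling on counts without mitochondrially encoded genes and the 10 genes of highest count, no filter, title order, those 2 libraries left out, the 6 compared libraries alone, a replicate block and each replicate left out. Python 3.11.15 with numpy 2.4.6, pandas 2.3.3 and matplotlib 3.10.9 was used for the ratio test, sequences and figures.

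Members and lists were chosen with earlier results of these data known. Named are all members, YAF9, per list and comparison up to 2 genes in each direction with the smallest p past the threshold, and the 5 genes most like ISU1 and ISU2. Some genes named in this way are also given in other comparisons.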

Additional observations from a re-analysis of the deposited data

Results flagged for a closer look

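The W89A-over-WT difference changed between time points for 4 of the 10 members by the edgeR interaction test, beside 41.9% of all genes: ISU1 (adjusted p = 5.866e-05), ISU2 (0.000169), ISA2 (0.0001246) and GRX5 (0.0003772). ISU1 was higher in W89A at time point 2 and lower at time point 5. ISU2 was lower at time points 1 and 5. ISA2 was lower at time point 3, and GRX5 at time points 3 and 4. All 4 passed in all 13 alternatives, with adjusted p no higher than 0.00233 for ISU1, 0.00618 for ISU2, 0.003406 for ISA2 and 0.01086 for GRX5.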

How the results depend on the processing

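The counts of members called at time points 1, 2 and 3, the average, the interaction and both cycles stayed within 1.5 times, and the ISU1 to ISU2 ratio kept its direction, under all alternatives that left out no whole replicate. At time point 4, where 1 member was called, the count was 3 by title order and in DESeq2, 2 with the 2 cycle 1 libraries of doubtful time point left out, with RLE factors and with scaling that left out mitochondrially encoded genes and the 10 genes of highest count, and 0 for the 6 libraries alone. At time point 5 (3 members) it was 0 with the 2 cycle 1 libraries of doubtful time point left out. Without a single replicate, the count ranged from 1 to 3 at time point 2 (2 with all), 3 to 4 at time point 3 (5 with all), 1 to 2 at time point 4 and 0 to 3 at time point 5. The cause was not tested.

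The average log2 fold change of SSQ1 (-0.007) changed sign to 0.0122 with the 2 cycle 1 libraries of doubtful time point left out; without a replicate it ranged from -0.0661 to 0.0317 and that of NFU1 from -0.0253 to 0.0322. Of 34 member fold changes at single time points with an unadjusted p of 0.05 or more, 19 changed sign in some alternative, none beyond 0.204.

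Same-numbered cycles of the strains deviated together in 3 of 15 correlations over 0.1 (-0.22 to 0.28). With groups of 3 libraries these cannot decide whether cycle numbers pair the strains. Within a strain, libraries of the same cycle deviated together in 9 of 30 such correlations in W89A and 7 of 30 in WT, among them W89A at time points 3 and 4 in all 3 cycles (0.169, 0.210 and 0.394). With the replicate block, cycle within strain in edgeR, the count of members was 1, 3, 5, 1 and 3 at time points 1 to 5, 5 for the average and 4 for the interaction. The ratio had no such block. Its alternative exchanged strains within pairs of the same cycle number at each time point (32768 arrangements). That difference was 0.49 (exact sign-flip permutation p = 0.025), by a pairing that the correlations above do not settle.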
